A study of Homo sapiens with 6 samples.

Results

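The genes described here are 10 members of the BCL2 family, the proteins that decide whether the mitochondrial outer membrane stays closed or is opened during apoptosis. They were chosen by name, with earlier results of these data known. All 10 were found by Ensembl identifier among the 32364 genes of the deposited table. Kasumi-1, a human acute myeloid leukemia line with a t(8;21) translocation, was cultured for 48 h with 0.5 µM I13, an inhibitor of histone deacetylases, or as a control. The study's methods give DMSO at a matched concentration as the control. Each group had 3 libraries, and all of them came from this single cell line, which limits the comparison to its genetic background. The study describes its experiments as independent repeats, while the sample labels do not say which culture each library came from, and the p-values measure the spread between these libraries. The study examined I13 as an inducer of differentiation in acute myeloid leukemia cells. The comparison below asks how the mRNA of the genes that set the threshold for apoptosis stood in I13-treated against control cells.

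The family falls into 3 roles. Pro-survival proteins such as BCL2 and MCL1 hold the effectors BAX and BAK1 in check, and BH3-only proteins bind the pro-survival proteins or activate the effectors. Once freed, the effectors form pores, cytochrome c leaves the mitochondria and caspases are activated. In myeloid leukemia cells MCL1 and BCL2 are known as the main survival proteins, and BCL2 is the target of venetoclax. Several members, MCL1 and PMAIP1 among them, are also controlled by protein degradation, which mRNA does not show.

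The roles share a short helix, the BH3 core, which fits the groove of a pro-survival protein. The core was searched for as a leucine, 3 further residues, a glycine or alanine, and an aspartate in 1 principal transcript of each gene. It was found once in 9 of the 10 members and not in BCL2A1. Across 19501 protein-coding genes, 24.9% held the same short pattern, so the letters alone do not mark the family. The coding bases of the 9 cores are shown because this element links the death genes to the survival genes. Capitals mark the core, and the lower-case bases are 15 on each side, 5′ to 3′ on the coding strand of GRCh38 by GENCODE release 29.
BCL2: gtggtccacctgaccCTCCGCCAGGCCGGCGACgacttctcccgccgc
MCL1: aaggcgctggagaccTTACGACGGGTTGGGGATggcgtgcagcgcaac
BCL2L1: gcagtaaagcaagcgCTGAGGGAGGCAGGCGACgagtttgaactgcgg
BAX: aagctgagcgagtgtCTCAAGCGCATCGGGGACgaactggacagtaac
BAK1: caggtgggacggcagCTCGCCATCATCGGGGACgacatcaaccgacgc
BID: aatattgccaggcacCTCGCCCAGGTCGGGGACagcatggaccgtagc
BCL2L11: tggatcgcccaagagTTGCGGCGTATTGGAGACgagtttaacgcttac
PMAIP1: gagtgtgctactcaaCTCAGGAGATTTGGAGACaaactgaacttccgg
BBC3: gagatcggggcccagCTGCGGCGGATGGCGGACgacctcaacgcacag
The BCL2 stretch lies in exon 2 of its transcript, at chr18:63318346-63318393 on the minus strand. The PMAIP1 stretch lies in exon 2 at chr18:59902658-59902705 on the plus strand. The others lie in coding exons at chr1:150578862-150578909 (MCL1, exon 1), chr20:31721919-31721966 (BCL2L1, exon 2), chr19:48955772-48955819 (BAX, exon 3) and chr6:33575384-33575431 (BAK1, exon 4). Those of the other BH3-only genes lie at chr22:17739412-17739459 (BID, exon 4), chr2:111150088-111150135 (BCL2L11, exon 4) and chr19:47226576-47226623 (BBC3, exon 3).

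The values are FPKM, the fragments of a gene relative to its exon length and to library depth. For most genes that length was all annotated exons of the gene joined, not the length of the transcripts expressed. Comparisons between genes depend on it, and a gene whose expressed transcripts are shorter is understated. The depth recovered from the FPKM values was between 15281052 and 17221344 mapped fragments per library. Replicates differed by more than counting noise, and the chi-square divided by the number of genes was 2.93 to 7.73 over the 6 replicate pairs. Control replicate 3 and I13 replicate 2 stood apart from the other 4 libraries on the first principal component, which carried 43.3% of the variance of 4133 genes. No batch is named, so values are also given within this library pair and within the other 4. The pair was chosen from these same expression values. The defining genes of the line were present in every library, with MPO at 10241 FPKM or more, KIT at 196 or more and RUNX1T1, the partner in the translocation, at 12.5 or more. Of the 7 markers of the line, CTSG, a protease of neutrophil granules, had 192 ± 7.07 FPKM in the control and 158 ± 14.3 FPKM in the I13 libraries, and CD33, a myeloid surface receptor, had 11.5 ± 0.613 and 13.2 ± 0.483 FPKM (SD, n = 3). The groups of both did not overlap, 2 of the 7 markers, where 9.52% of the 18726 genes tested did not. Neither passed the adjusted p (0.742 and 0.890 from limma). Of 9 markers of other cell types that were in the table, COL1A1, COL1A2 and ALB were at 0 in every library. The sum of the 9 was between 24.5 and 29.6 FPKM per library, most of it EPCAM, at 20.8 to 26.5 FPKM. Among the lymphocyte markers, CD3D had 5 or 6 fragments in each control library and 2 in each I13 library, whereas the I13 mean was the higher for CD8A (1.39 and 1.67 FPKM) and CD79A (1.39 and 1.93 FPKM), with overlapping groups. The part of these markers in the results was not tested. In bulk RNA, fewer cells of a type and less RNA per cell cannot be told apart.

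MCL1 stood far above the other pro-survival genes, and BCL2A1 was nearly silent. By mean FPKM over the 6 libraries the order was MCL1 (47.6), BAX (23.7), BID (12.5), BAK1 (11.2), PMAIP1 (11), BCL2L1 (7.56), BCL2L11 (7.01), BCL2 (6.77), BBC3 (0.537) and BCL2A1 (0.0653). Among the 18726 genes whose mean FPKM reached 0.1, the minimum for testing, MCL1 was at percentile 96 and BBC3 at percentile 29.1. The ranges of MCL1, BAX and BID did not meet, and every PMAIP1 value lay above every BCL2L1 value. BID was above BAK1 in 6 of 6 libraries by 1.11-fold, although their ranges met. The neighbours BAK1 and PMAIP1 could not be ordered, since BAK1 was the higher in 3 of 6 libraries. BCL2L1, BCL2L11 and BCL2 had overlapping ranges between 5.72 and 8.31 FPKM, with BCL2L1 above BCL2L11 in 5 of 6 libraries and BCL2L11 above BCL2 in 4 of 6. BBC3 lay 12.6-fold below BCL2, with no overlap.

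**Figure D1:**
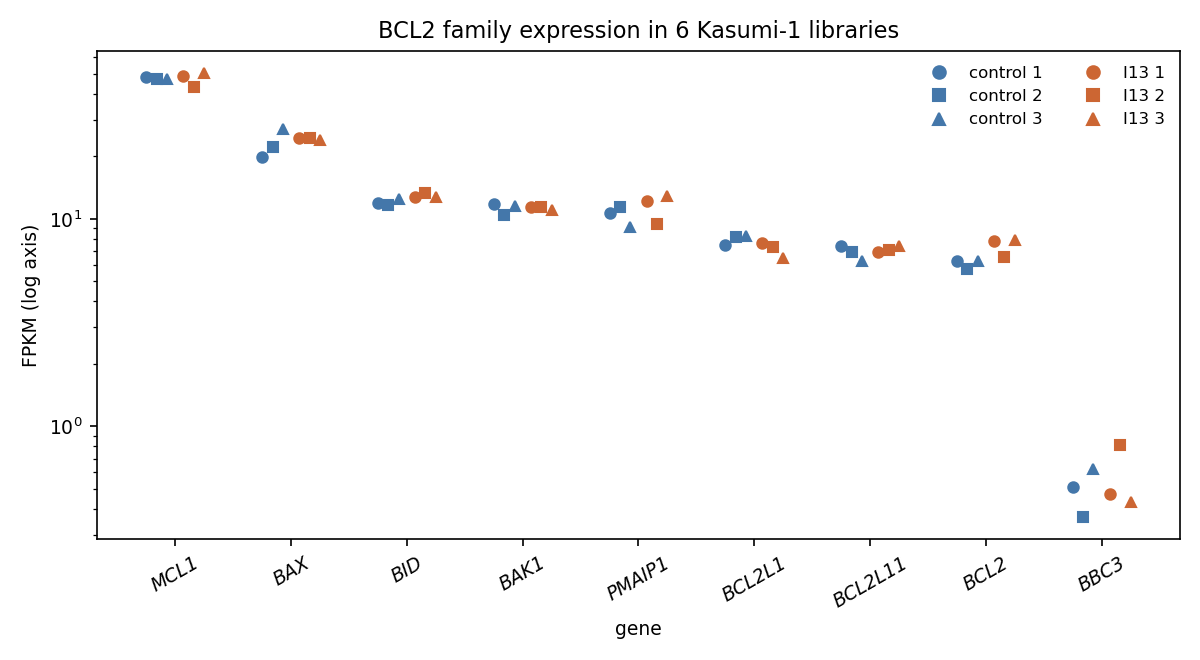
FPKM of 9 BCL2 family genes on a log axis, 1 point per library, with control libraries in blue and I13 libraries in orange and the marker shape giving the replicate. MCL1 is the highest in every library, between 43.4 and 50.5 FPKM, BBC3 lies under 1 FPKM, and blue and orange points overlap for all but BCL2 and BID, while BCL2A1, with 0 FPKM in 2 libraries, is not drawn.

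I13 and control libraries were compared on log2(FPKM + 0.1) with limma over the 18726 genes, a scale that understates fold changes of low genes. None of the 9 members tested passed an adjusted p of 0.05 (Benjamini-Hochberg), and the smallest adjusted p among them was 0.890, for BCL2. The same call, with a log2 fold change of at least 0.58, was made for 0 of all genes (0%). By limma's voom on recovered fragments, 0 of the 9 members passed against 0.0362% of 13807 genes. At an unadjusted p under 0.05, 1 of 9 members was found by limma and 1 of 9 by voom, BCL2 in each case, where the share over all genes was 5.14% by limma and 5.35% by voom. In the direction of BCL2, higher in I13, the share over all genes was 2.55%, and in the other direction, where no member was found, it was 2.59%. The log2 fold changes of the 9 lay between -0.16 and 0.28, with 7 above 0 and a median of 0.080, against 0.006 for all genes tested, of which 51.8% were above 0. The 95% interval lay inside a log2 fold change of 0.58 in either direction for 8 of the 9, all except BBC3. With a term for the library pair, or without the pair, BCL2, BID and PMAIP1 were at an unadjusted p under 0.05, 3 of 9 members against 7.62% and 8.58% of all genes. BCL2A1 was not tested, because its mean FPKM was under the minimum.

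**Figure D2:**
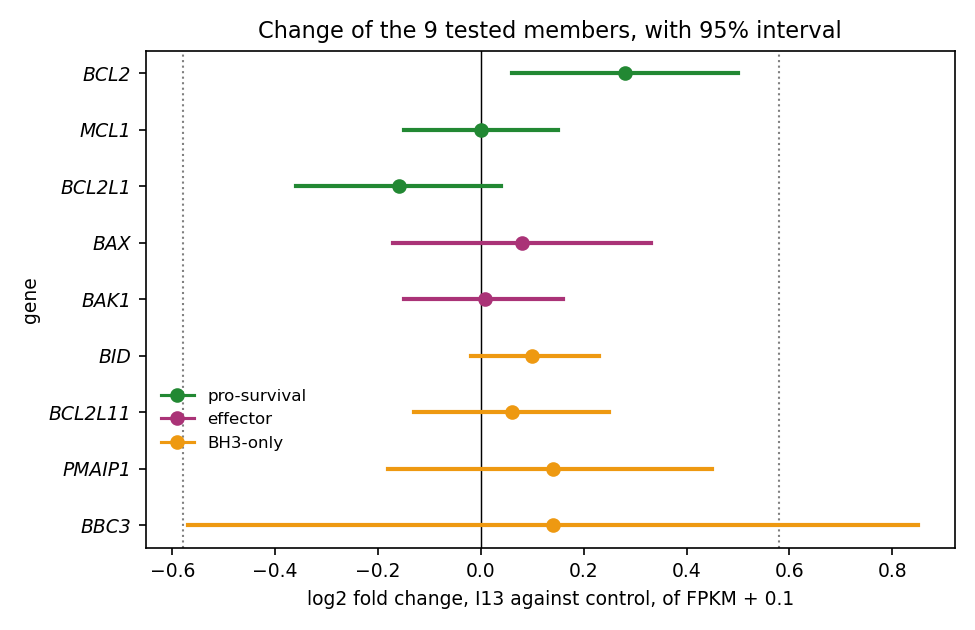
Log2 fold change of FPKM + 0.1, I13 against control, for the 9 members tested, with the 95% interval from limma (3 libraries per group) and dotted lines at 0.58 in either direction. The interval of BCL2 (0.06 to 0.50) is the only one that leaves out 0, and that of BBC3 (-0.57 to 0.85) is the only one that crosses a dotted line.

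Among the pro-survival genes, BCL2 (ENSG00000171791, chromosome 18 from 63123346 to 63320128), first found at the translocation of follicular lymphoma, had 6.28, 5.72 and 6.25 FPKM in control replicates 1, 2 and 3. It had 7.84, 6.57 and 7.95 FPKM in I13 replicates 1, 2 and 3, from between 1155 and 1469 fragments per library. The groups did not overlap, and the lowest I13 value came from replicate 2. The means were 6.08 ± 0.315 and 7.45 ± 0.768 FPKM (SD, n = 3), a fold change of 1.22 with a 95% interval from 1.05 to 1.42. On the log2 scale the difference was 0.28 with a standard error of 0.0934, for which limma gave a p of 0.0184 before and 0.890 after adjustment. By voom it was 0.29, with a p of 0.00195 before and 0.409 after adjustment. Among the 4 other libraries it was 0.39, and inside the pair that stood apart it was 0.07. Leaving out control replicate 2 gave an unadjusted limma p of 0.0692, leaving out I13 replicate 1 gave 0.0690, and leaving out I13 replicate 3 gave 0.0698, so the gene was past 0.05 only when each of these was present.

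MCL1 (ENSG00000143384, chromosome 1 from 150574551 to 150579738), whose short-lived protein binds BAK1 and the BH3-only proteins, had 48.5, 47.1 and 47.1 FPKM in the control libraries. In the I13 libraries it had 49.0, 43.4 and 50.5 FPKM. The I13 values lay on both sides of the control values, with replicate 2 the lowest of all 6. Both group means were 47.6 FPKM, with an SD of 0.819 in the control and 3.71 in the I13 group (n = 3), and the fold change had a 95% interval from 0.901 to 1.11. The reads behind a gene value do not separate the long MCL1 form, which blocks apoptosis, from the short form, which promotes it.

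BCL2L1 (ENSG00000171552, chromosome 20 from 31664452 to 31723989) encodes BCL-xL and, by splicing, the pro-apoptotic BCL-xS, which the gene value does not tell apart. It had 7.45, 8.18 and 8.31 FPKM in the control libraries and 7.62, 7.29 and 6.5 FPKM in the I13 libraries. The groups overlapped only through control replicate 1 and I13 replicate 1. The log2 difference of -0.16 had a standard error of 0.0837 and a limma p of 0.0966, or 0.965 adjusted, and the 95% interval of the fold change ran from 0.780 to 1.03. The value was -0.15 without the library pair and -0.19 within it, and leaving out 1 library at a time moved it over -0.209 to -0.095, the latter without I13 replicate 3. ABALON, an RNA annotated on the opposite strand within the gene, was between 0.183 and 0.413 FPKM.

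BCL2A1 (ENSG00000140379, chromosome 15 from 79960889 to 79971446), an NF-κB target of mature myeloid cells and lymphocytes, had 2, 2 and 0 fragments in the control libraries and 1, 0 and 2 in the I13 libraries. The libraries at 0 were control replicate 3 and I13 replicate 2. The 4 and 3 fragments gave a ratio of 0.798 at equal depth, with an exact 95% interval from 0.117 to 4.72 that covers counting error only. A difference was not detectable at this depth.

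The mix of the 4 pro-survival members was described as the share of each gene in their summed FPKM. No test was made, since the mix was chosen with the values known. The sum leaves out BCL2L2, a pro-survival gene outside the members. BCL2L2 had 4.18 ± 0.415 FPKM in the control and 3.88 ± 0.599 FPKM in the I13 libraries (SD, n = 3). MCL1 made up 77.8%, 77.1% and 76.4% of the sum in the control libraries and 75.9%, 75.8% and 77.6% in the I13 libraries. BCL2 made up 10.1%, 9.37% and 10.1% in the control and 12.2%, 11.5% and 12.2% in the I13 libraries, without overlap. The share of BCL2L1 was 11.9%, 13.4% and 13.5% in the control and 11.8%, 12.7% and 9.99% in the I13 libraries. The ratio of BCL2 to BCL2L1 was 0.843, 0.700 and 0.753 in the control libraries, so BCL2L1 had the higher FPKM in each of them. By fragments BCL2 was the higher, with 1155 to 1469 per library against 329 to 465. Its joined exons span 11765 bases and those of BCL2L1 3314 bases, so their order depends on the length used. In the I13 libraries the ratio was 1.03, 0.901 and 1.22, above every control value and above 1 in 2 of 3 libraries. The summed FPKM of the 4 members was 61.7 ± 0.634 in control and 62.3 ± 4.32 in I13 libraries (SD, n = 3).

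**Figure D3:**
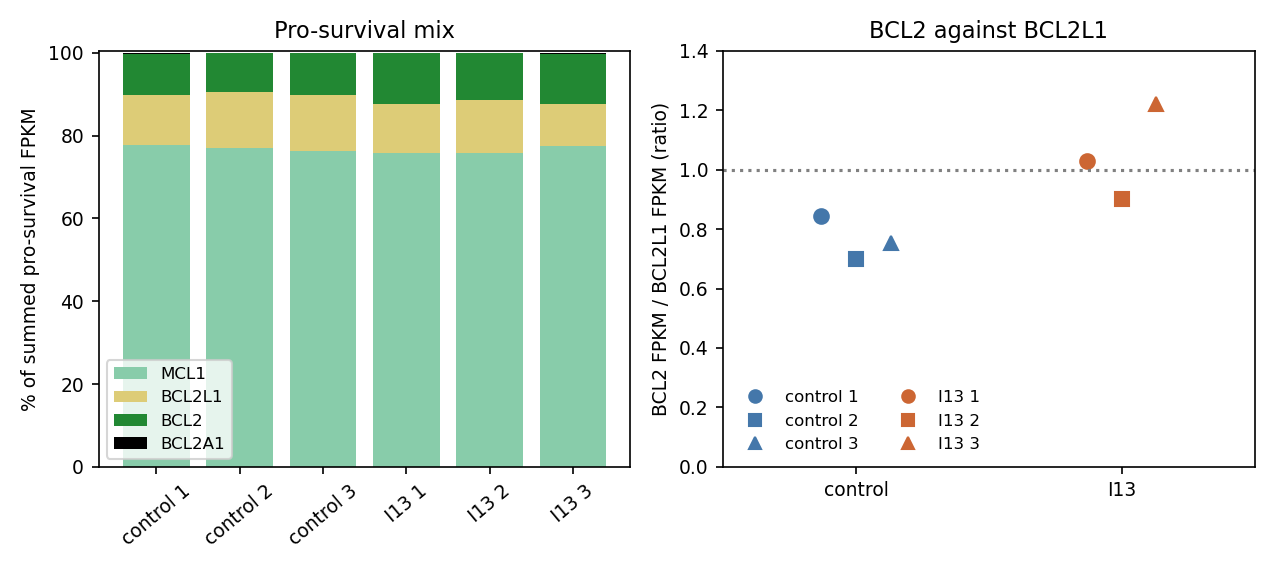
Left, share of MCL1, BCL2L1, BCL2 and BCL2A1 in their summed FPKM for each library, in percent. Right, ratio of BCL2 to BCL2L1 FPKM per library, where the control libraries lie between 0.700 and 0.843 and the I13 libraries between 0.901 and 1.22, with the dotted line at equal levels.

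The effectors BAX and BAK1 had group means that differed by less than the SD of the control libraries (3.73 and 0.777 FPKM). The SD of the I13 libraries was smaller, at 0.309 and 0.204 FPKM. BAX (ENSG00000087088, chromosome 19 from 48954815 to 48961798), which moves from the cytosol to mitochondria when activated, had 19.9, 22.3 and 27.2 FPKM in the control libraries and 24.5, 24.4 and 23.9 FPKM in the I13 libraries. The lowest and the highest BAX value were both from control libraries. Its log2 fold change was 0.080 (95% interval -0.17 to 0.33, adjusted p = 1 from limma), 0.20 without the library pair and -0.16 within it. Without control replicate 3 it was 0.20 with an unadjusted p of 0.0220. BAK1 (ENSG00000030110, chromosome 6 from 33572547 to 33580293), which resides in the outer mitochondrial membrane, had 11.8, 10.4 and 11.5 FPKM in the control and 11.4, 11.4 and 11 FPKM in the I13 libraries. Its 3 I13 values lay within the range of the control values, and the fold change was 1.01 with a 95% interval from 0.901 to 1.12. The ratio of BAX to BAK1 was between 1.68 and 2.37 in the control and between 2.14 and 2.17 in the I13 libraries.

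All 4 BH3-only members had a log2 fold change above 0, between 0.060 and 0.14, where 51.8% of all genes tested were above 0. None of the 4 passed a p of 0.05. Of BH3-only genes outside the members, BMF was at -0.49, BAD at 0.027 and BIK at 0.002. BID (ENSG00000015475, chromosome 22 from 17734138 to 17774770), which caspase-8 cleaves to link death receptors to mitochondria, had 11.9, 11.7 and 12.4 FPKM in the control and 12.7, 13.3 and 12.8 FPKM in the I13 libraries. BID and BCL2 were the 2 of 9 tested members whose groups did not overlap, where 9.52% of all genes tested did not. Both were wholly higher in I13, as were 4.88% of all genes tested, and no tested member was wholly lower, as were 4.64% of all genes tested. Without the library pair 5 of 9 members did not overlap, against 37.9% of all genes. The gap of BID was narrow, from 12.4 to 12.7 FPKM, and under scaling to the library median the BID groups overlapped. BID differed by 0.10 on the log2 scale with a standard error of 0.0538, and limma gave a p of 0.0974, or 0.965 adjusted. The difference was 0.11 without the library pair (unadjusted p = 0.0323 from limma) and 0.09 within it.

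PMAIP1 (ENSG00000141682, chromosome 18 from 59899948 to 59904306) encodes NOXA, which binds MCL1 and is induced by p53 and by the integrated stress response. It had 10.7, 11.4 and 9.10 FPKM in the control libraries and 12.2, 9.49 and 12.9 FPKM in the I13 libraries. The lowest values came from control replicate 3 and I13 replicate 2, the libraries that stood apart, and the groups overlapped through the latter. Over all 6 libraries the log2 fold change was 0.14 (95% interval -0.18 to 0.45, unadjusted p = 0.339 from limma). With each library left out in turn it ran from 0.044, without control replicate 3, to 0.270, without I13 replicate 2. Without that pair it was 0.18 with an unadjusted p of 0.0414, where 8.58% of all genes passed, and within the pair it was 0.06.

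BCL2L11 (ENSG00000153094, chromosome 2 from 111119378 to 111168447) encodes BIM, which binds every pro-survival protein and is induced by FOXO3. It had 7.38, 6.95 and 6.26 FPKM in the control libraries and 6.95, 7.08 and 7.41 FPKM in the I13 libraries, with overlapping groups. Its fold change was 1.04 with a 95% interval from 0.916 to 1.19. MIR4435-2HG, annotated across it on the opposite strand, was between 0.902 and 0.987 FPKM. BBC3 (ENSG00000105327, chromosome 19 from 47220822 to 47232766) encodes PUMA, a p53 target, and had only 28, 20 and 33 fragments in the control libraries and 24, 43 and 21 in the I13 libraries. These gave 0.511, 0.367 and 0.626 FPKM against 0.474, 0.811 and 0.432 FPKM, with I13 replicate 2 the highest and control replicate 3 next. The fold change of 1.1 had a 95% interval from 0.674 to 1.81, the widest of the 9. The summed FPKM of the 4 BH3-only members was 30.6, 30.5 and 28.4 in the control and 32.3, 30.7 and 33.5 in the I13 libraries.

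Of the 10 members, 7 overlap another annotated gene, and 6 of these overlap a gene that is in the table. The libraries were made with a stranded kit, but whether the counting used the strand is not given in the sources used here, so fragments of overlapping genes could have been added or set aside. The overlapping genes in the table were under 1 FPKM in every library, except MIR3198-1 within BID, a short RNA gene with up to 1.51 FPKM.

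The rest of the pathway was examined with 63 genes in 5 lists written from general knowledge, of which 62 were in the table and 55 were tested. At the adjusted p, 0 of the 55 passed by limma and 0 of 54 by voom. At the unadjusted p, 2 of 55 were found by limma, BMF lower and E2F1 higher, against 5.14% of all genes, and 4 of 54 by voom (BMF, BNIP3, ENDOG and E2F1), against 5.35%. The median log2 fold change was -0.019, against 0.006 for all genes tested. Of the 55, 22 were above 0 and 33 below 0, where 51.8% of all genes tested were above 0. The 95% interval lay inside 0.58 in either direction for 48. The groups did not overlap for 8 of the 55, where 9.52% of all genes tested did not. BMF, BCL2L13, CASP8, HUWE1 and VDAC2 were wholly lower in I13, as were 4.64% of all genes tested. E2F1, ENDOG and DFFA were wholly higher, as were 4.88% of all genes tested.

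BMF, a BH3-only gene whose product is held at the cytoskeleton until released, had 2.25, 1.94 and 2.16 FPKM in the control and 1.30, 1.39 and 1.77 FPKM in the I13 libraries. Every I13 value lay under every control value. The log2 difference was -0.49 with a standard error of 0.148, and the limma p was 0.0124, or 0.875 adjusted. It was -0.43 without the library pair (unadjusted p = 0.114) and -0.60 within it, and without control replicate 1 the unadjusted limma p was 0.0516. It was the 1 gene at the unadjusted p among 10 tested genes of the other BCL2 family list, whose median was -0.110. BCL2L12, the gene of that list with the highest level, had 22.0 ± 2.24 FPKM in the control and 23.3 ± 2.54 FPKM in the I13 libraries (SD, n = 3).

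**Figure D4:**
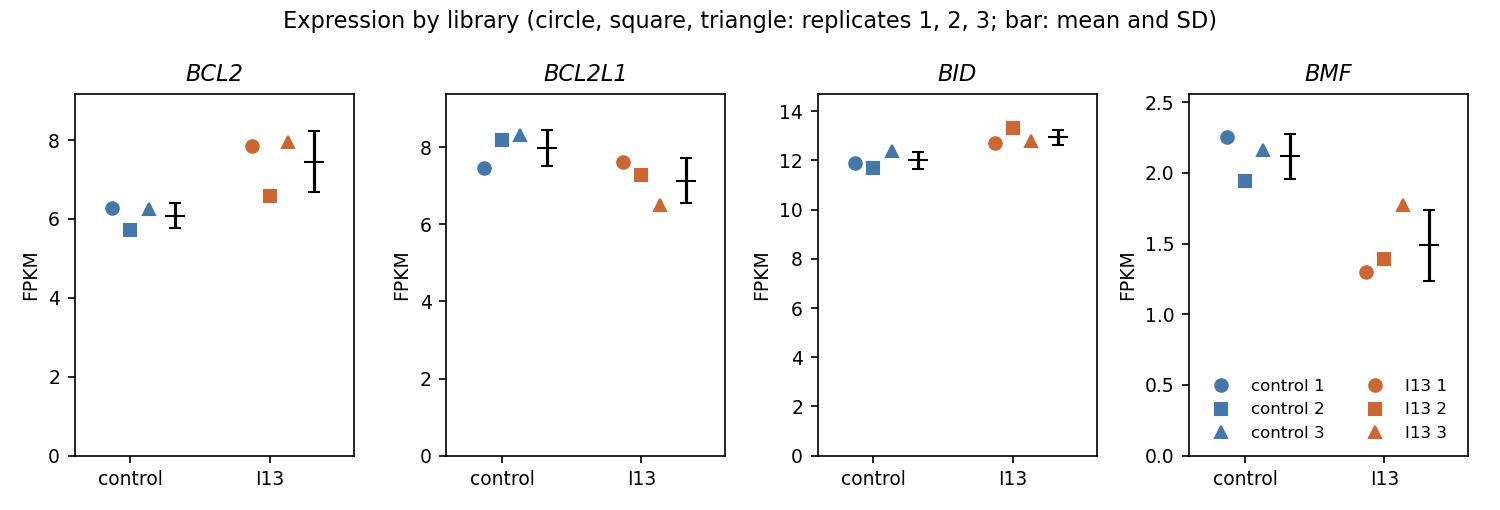
FPKM of BCL2, BCL2L1, BID and BMF in each library, with bars for the mean and SD of 3 libraries. For BCL2 and BID the I13 points lie above the control points, and for BMF they lie below. For BCL2L1 the groups overlap through I13 replicate 1, at 7.62 FPKM, and control replicate 1, at 7.45 FPKM.

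Of the 15 apoptosome and caspase genes tested, 0 passed either p by limma, with a median log2 fold change of 0.011. By voom 1 passed the unadjusted p, ENDOG, a mitochondrial nuclease (unadjusted p = 0.0286, adjusted p = 0.812). ENDOG had 10.4 ± 1.92 FPKM in the control and 12.8 ± 0.801 FPKM in the I13 libraries (SD, n = 3). Its log2 fold change was 0.31 (95% interval -0.01 to 0.63, unadjusted p = 0.056 and adjusted p = 0.947 from limma). The value was 0.10 without the library pair and 0.72 within it. CYCS, which encodes cytochrome c, was the highest of the list at 42.4 ± 1.22 and 45.1 ± 2.34 FPKM. Its unadjusted limma p was 0.139, or 0.0386 with the library pair term and 0.0372 without I13 replicate 2. In those last fits 7.62% and 6.92% of all genes were under 0.05. CASP10, an initiator caspase, had a log2 fold change of -0.10 (95% interval -0.39 to 0.19).

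The 4 tested inhibitors of apoptosis had log2 fold changes between -0.03 and 0.03, and 0 of the 4 passed the unadjusted p by limma or voom. BIRC5, or survivin, which also acts in mitosis, was the highest of them at 45.2 ± 3.87 FPKM in the control and 46.0 ± 1.73 FPKM in the I13 libraries. XIAP, which inhibits caspases directly, had a fold change of 1.02 (95% interval 0.871 to 1.20), and BIRC6 one of 0.978 (0.847 to 1.13).

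Of 8 tested death receptor genes, 0 passed the unadjusted p by limma or voom, with a median log2 fold change of -0.044. TNFRSF1A, the main receptor for TNF, was the highest at 85.2 ± 5.95 FPKM in the control and 79.0 ± 5.37 FPKM in the I13 libraries. Its unadjusted limma p was 0.166, or 0.0156 with the library pair term, a fit where 7.62% of all genes were under 0.05. FADD, the adaptor of the receptors, had a fold change of 1.12 (95% interval 0.897 to 1.39), and CFLAR, which blocks caspase-8, one of 0.914 (0.747 to 1.12).

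Among 18 tested regulators of the family, E2F1, a cell cycle factor that can also induce BH3-only genes, had 23.0, 25.4 and 26.7 FPKM in the control and 27.7, 29.6 and 27.3 FPKM in the I13 libraries. The groups did not overlap, and the log2 difference was 0.17 with a standard error of 0.0687 and a limma p of 0.0390, or 0.947 adjusted. The unadjusted p was over 0.05 under 8 of 16 alternatives with a test, among them leaving out any library but control replicate 3 (up to 0.115) and median scaling (0.0782). FOXO3, an activator of BCL2L11, had 15.1 ± 1.11 FPKM in the control and 13.9 ± 0.672 FPKM in the I13 libraries, with a log2 fold change of -0.12 (unadjusted p = 0.145 from limma). Its unadjusted limma p was 0.0289 with the library pair term, 0.0433 without the pair and 0.0373 without control replicate 3. In those fits 7.62%, 8.58% and 6.42% of all genes were under 0.05. MYC was the highest of the list at 399 ± 34.4 and 411 ± 12.5 FPKM, a fold change of 1.03 (95% interval 0.921 to 1.15).

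**Figure D5:**
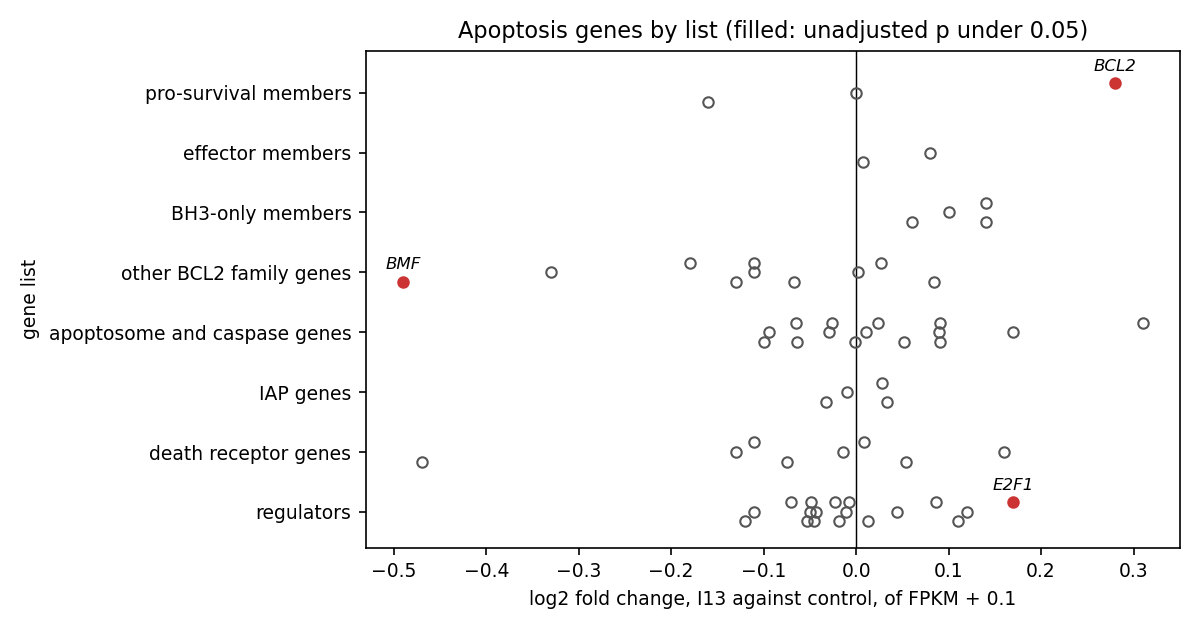
Log2 fold change of FPKM + 0.1, I13 against control, for each tested gene of the 3 member roles and the 5 other apoptosis lists, 1 circle per gene, spread vertically only to separate them. BCL2, BMF and E2F1 are filled because their unadjusted p from limma was under 0.05, and none of the genes passed the adjusted p.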

How the data were processed

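The authors deposited 1 table of FPKM, with 3 control and 3 I13 columns matched to the labels. The labels name a stranded mRNA kit, the build hg38 and, without roles or versions, Trimmomatic, HISAT2, Cufflinks and HTSeq. Neither the annotation nor the counting strand is given there. FPKM values were used as deposited. Fragments were recovered with exon lengths from GENCODE release 29. Of 27002 genes above 0 with a length, 25769 (95.4%) gave whole numbers in all 6 libraries within 0.01. A further 1103 were recovered from a common length, and 223 were not.

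Log2(FPKM + 0.1) was fitted in R 4.3.3 with limma 3.58.1, with a variance trend, over genes whose mean FPKM reached 0.1, and tested on simulated data first. Voom used genes with at least 10 mean fragments. All tests were two-sided. Sequences were read with Biopython 1.88 in Python 3.11.15. The alternatives were other pseudocounts, filters and scalings, libraries left out, a replicate block, a library pair term and voom. The text names all members and, of the other lists, every gene with an unadjusted p under 0.05 and, per list, the highest gene and the largest rise and fall at a mean FPKM of at least 1. Further genes were named after their values were seen. The members, lists and tests were chosen with earlier results of these data known.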

Additional observations from a re-analysis of the deposited data

How the results depend on the processing

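No member passed the adjusted p with the fold threshold under any of the 16 alternatives with a test. The count of members at the unadjusted p, 1 as reported, was between 0 and 3 of 9 with a library left out, and the share of all genes under the same fits was 4.19% to 6.92%. The count was 0 when control replicate 2 (4.2% of all genes) or I13 replicate 1 (4.49%) or 3 (5.08%) was missing. It was 3 without control replicate 3 (BCL2, BAX and BID, against 6.42%), without the library pair (8.58%) or with a term for that pair (7.62%). The count of other pathway genes at the unadjusted p, 2 of 55 as reported, was between 0 (without control replicate 1, against 4.19%) and 6 (without control replicate 3, against 6.42%) with a library left out. It was 1 under median scaling (4.89%) or without a variance trend (4.77%), 6 with the pair term (7.62%) and 4 by voom (5.35%). Members without overlap, 2 as reported, numbered 1 under median scaling (9.47% of all genes), 5 without the library pair (37.9%) and between 2 and 4 with a library left out, where 16.4% to 23.5% of all genes did not overlap. The cause was not tested. The replicate numbers did not pair the libraries, with correlations of deviations of 0.32, -0.379 and -0.297 for numbers 1, 2 and 3. With the replicate block, 1 member and 2 pathway genes were found at the unadjusted p, against 4.6% of all genes. In that paired fit limma lost E2F1 (0.0572 unadjusted) and gained ENDOG (0.0340 unadjusted).

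The sign of the log2 difference changed for 5 members and 8 other named genes, and no value of changed sign was larger than 0.159 in size. BAD, BIK, BCL2L2, BCL2L13, CASP8, DFFA, HUWE1 and VDAC2 were not included in this count. Of these, BAD and BIK changed sign without the library pair (-0.24 and -0.11) and BCL2L2 within it (0.06). With each library left out in turn, MCL1 lay between -0.044 and 0.064, BAX between -0.024 and 0.202, BAK1 between -0.049 and 0.046, BCL2L11 between -0.003 and 0.113 and BBC3 between -0.098 and 0.290. Outside the members, BCL2L12 lay between -0.003 and 0.163, BIRC5 between -0.032 and 0.091, BIRC6 between -0.090 and 0.046, MYC between -0.001 and 0.114, BNIP3L between -0.368 and 0.007 and XIAP between -0.025 and 0.116. Without the library pair MCL1 was at 0.058. Within the pair, BAX was at -0.159, BAK1 at -0.017, BIRC5 at -0.053, FADD at -0.010, MYC at -0.060, XIAP at -0.141, BNIP3 at 0.016 and BNIP3L at 0.055. BNIP3, reported at -0.33, lay between -0.467 and -0.114 with a library left out. Few fragments limited BCL2A1 and BBC3.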

Other observations

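BNIP3 and BNIP3L, mitophagy genes of the wider family that respond to hypoxia, were named after their values were seen. BNIP3 had 11.3 FPKM in control replicate 1 and between 6.33 and 7.58 FPKM in the other 5 libraries. BNIP3L was also highest in control replicate 1, at 9.69 FPKM, with the other libraries between 5.72 and 7.60 FPKM. The log2 fold changes of both, -0.33 for BNIP3 (unadjusted p = 0.102 from limma and 0.0138 from voom) and -0.18 for BNIP3L (unadjusted p = 0.367), contain 1 control library that lay above all the others. Without the library pair they were -0.50 and -0.30, and within it 0.02 and 0.05. Without control replicate 1 they were -0.114 for BNIP3 and 0.007 for BNIP3L, and without control replicate 3 the unadjusted limma p of BNIP3 was 0.0461.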
